A study of Mus musculus with 24 samples.

Results

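The genes followed here are 9 components of the Notch pathway: the receptors Notch1, Notch2 and Notch4, the proteases Adam10 and Adam17, the nuclear factors Rbpj, Maml1 and Maml2, and the target gene Hes1. They were picked by gene symbol out of a table of 53715 genes measured by RNA-sequencing, and all 9 were found. A Notch receptor is activated by a ligand on a neighbouring cell, after which ADAM10, or in some settings ADAM17, cuts its outer part and gamma-secretase frees its intracellular part. That fragment enters the nucleus, binds the DNA-binding protein RBPJ together with a coactivator of the Mastermind-like (MAML) family, and switches on targets such as Hes1, a transcriptional repressor. In blood, Notch2 signalling is known for its role in the conversion of classical Ly6Chi monocytes into patrolling Ly6Clo monocytes.

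Ly6Chi and Ly6Clo cells were sorted from peripheral blood of wt mice and of N2ΔMy mice, in which Cre recombinase made from the Lyz2 locus deletes a floxed Notch2 allele (Notch2tm1Frad) in myeloid cells. All animals were 8 to 10 weeks old on a C57BL/6 background and carried GFP in the Cx3cr1 locus, since GFP was part of the sort gate. For IMQ, a daily dose of 50 mg Aldara, a cream with 5% of the TLR7 agonist imiquimod, was put on depilated skin for 4 to 5 days, and Sham mice received Vaseline. The 24 libraries formed 6 groups of 4: wt and N2ΔMy Ly6Chi cells after Sham, wt and N2ΔMy Ly6Chi cells after IMQ, and wt and N2ΔMy Ly6Clo cells after IMQ. Cre from Lyz2 also acts in neutrophils and macrophages, so the mutant is not a monocyte-only knockout, and whether wt mice carried Cre is not given in the sources used here. The labels do not say which libraries came from separate animals, so p-values measure the spread between these libraries.

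Values are normalized counts, that is, read counts scaled between libraries by the authors and rounded to whole numbers. The reads behind a library were inferred from the rounding as 9524061 to 19756688 (median 15112277). Library numbers fell into 2 series, with replicates 1 and 2 of every group in the first and replicates 3 and 4 in the second, and differences are also given within each series. The summed level of 7 Ly6Chi markers was 58562 to 101576 in the 16 Ly6Chi libraries and 1922 to 13985 in the 8 Ly6Clo libraries, whereas 11 Ly6Clo markers summed to 14210 to 36161 and 69582 to 151459. Of the other cell types listed, T cell and NK cell markers summed to at most 61 in any library, endothelial markers to at most 46, mast cell and basophil markers to at most 47, B cell markers to at most 176, platelet markers to at most 273, erythroid markers to at most 1185 and conventional dendritic cell markers to at most 1686. Plasmacytoid dendritic cell markers summed to 961 to 1929 over all libraries, with Cox6a2 at 0 in every Sham library. This sum does not tell how many such cells were present. In bulk libraries, fewer cells of a type and less RNA per cell cannot be told apart.

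A gene was tested when it reached 50 in at least 1 library, which held for 11230 genes and for 8 of the 9 members. Notch4 was at 1 to 34 in all 24 libraries and was not tested. Differences are on the scale log2(normalized count + 1) from limma on the 8 libraries of both groups, and were called when the adjusted p did not exceed 0.05 and the log2 difference was 0.6 or more in either direction (the minimum fold). With 4 libraries against 4, the smallest p of a two-sided exact permutation test is 0.0286, which is reached whenever the groups do not overlap.

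Per kilobase of exon, Notch2 stood first among 81 listed Notch pathway genes, with a mean of 1152 over the 24 libraries. Adam10 followed among the members at 584 per kb, then Adam17 at 406, Maml1 at 201, Notch1 at 160, Hes1 at 115, Rbpj at 46.4, Maml2 at 32.1 and Notch4 at 1.39. Notch2, Adam10 and Adam17 kept this order of mean levels in each of the 6 groups, while the order of Maml1, Notch1, Hes1, Rbpj and Maml2 below them changed between groups. In Ly6Clo cells, for example, Hes1 lay above Notch1, with mean levels of 343 against 37.2 per kb in wt and 152 against 82.6 per kb in N2ΔMy cells, and in wt Ly6Clo cells it also lay above Maml1 (182 per kb). The targeted receptor thus had the highest level per kb of the list, and the coactivator Maml1 lay above Maml2. Over the 6 groups, 6 of the 8 tested members passed limma's F-test with an adjusted p threshold of 0.01, beside 43% of all genes tested. Maml1 (adjusted p = 0.0955) and Adam17 (adjusted p = 0.226) did not pass. Maml1 passed as well when replicate number entered the model (adjusted p = 0.00968).

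**Figure D1:**
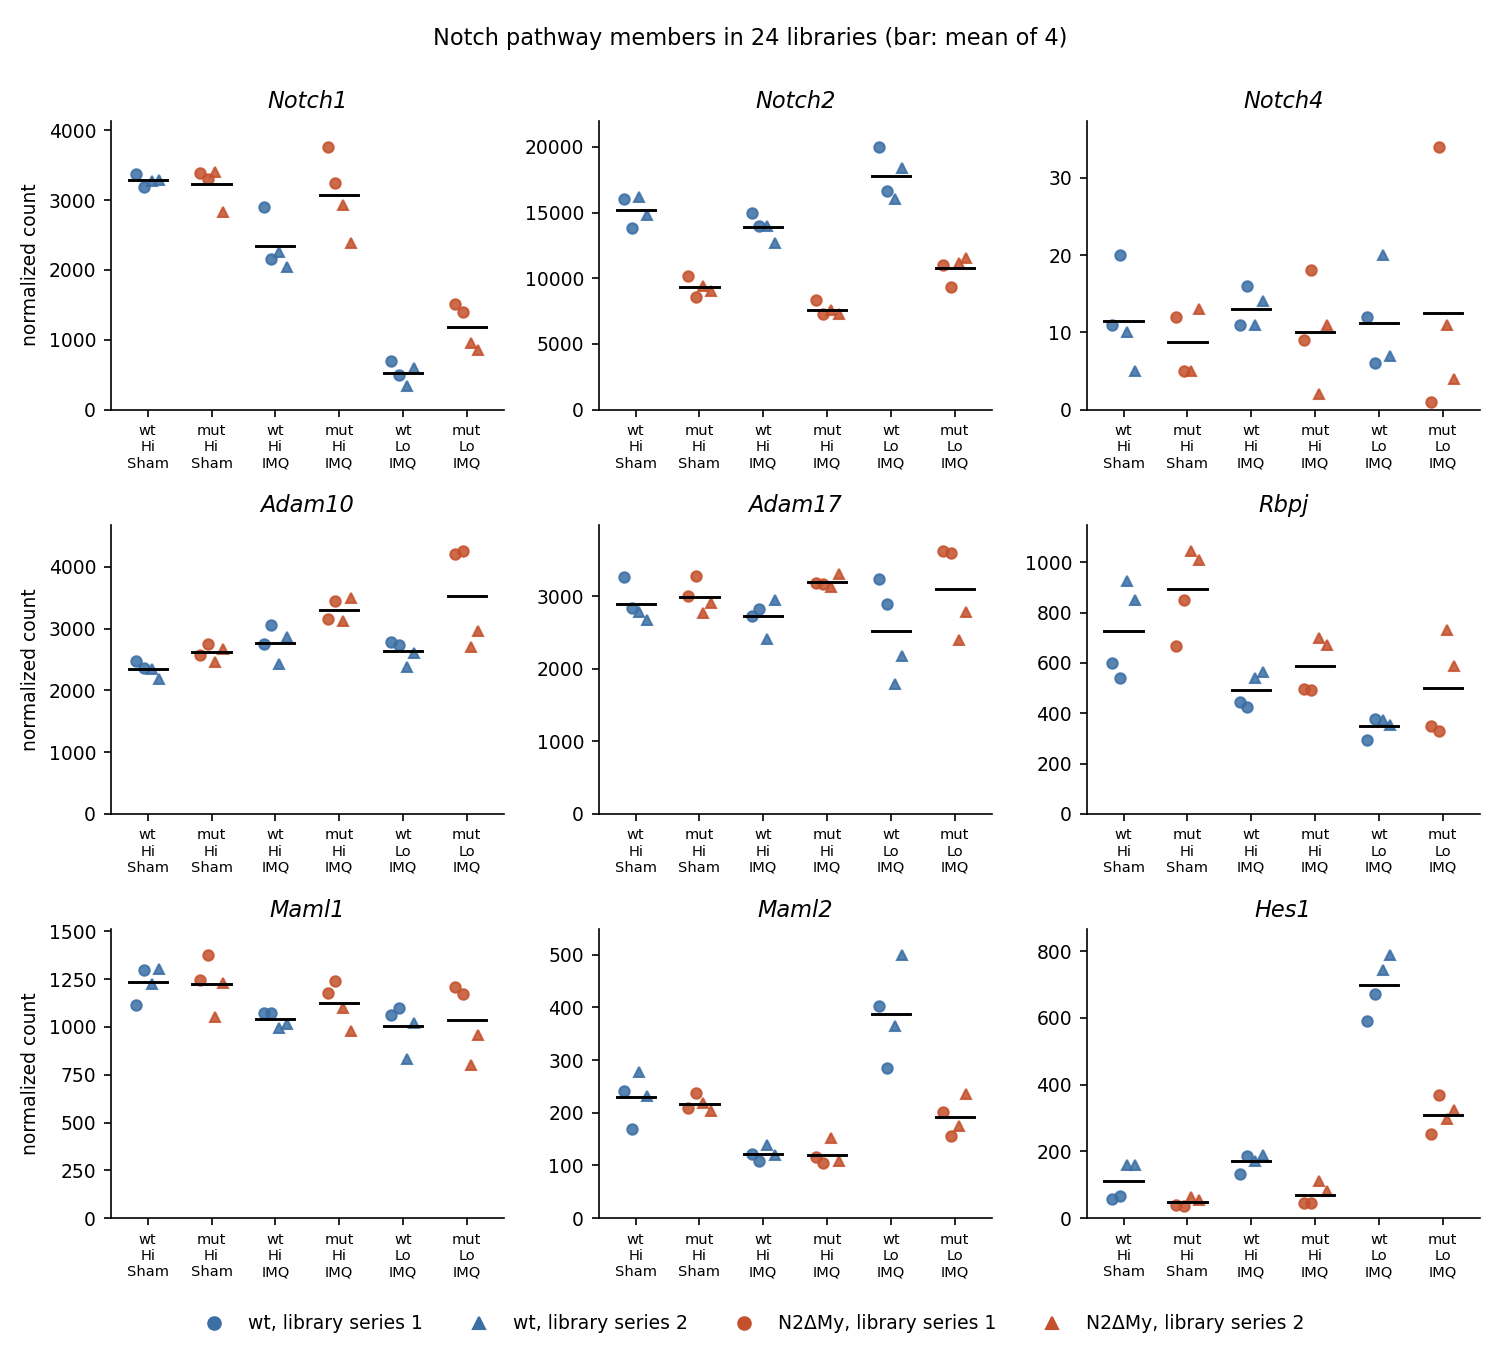
Normalized count (y axis, linear, from 0) of the 9 members in the 24 libraries by genotype, subset and treatment (x axis). Each point is 1 library, circles and triangles mark the first and second library series, and the bar is the mean of 4. Notch2 is lower in every N2ΔMy group (7240 to 11518) than in every wt group (12656 to 20005), while Hes1 is highest in wt Ly6Clo cells (592 to 788).

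Notch2 lies at chr3:98013527-98150361 on the plus strand (GRCm38.p6) and is the gene targeted in the mutant. Its normalized counts in Ly6Clo cells after IMQ were 20005, 16624, 16037 and 18399 in wt and 10987, 9368, 11137 and 11518 in N2ΔMy libraries. In Ly6Chi cells after IMQ they were 14982, 14001, 13993 and 12656 in wt and 8311, 7240, 7611 and 7303 in N2ΔMy libraries. All wt libraries were higher than all N2ΔMy libraries of the same cells, and the same held after Sham, with 13799 to 16214 in wt and 8603 to 10165 in N2ΔMy Ly6Chi cells. The mean in N2ΔMy cells was 60.5% of wt in Ly6Clo cells, 54.8% in Ly6Chi cells after IMQ and 61.1% in Ly6Chi cells after Sham.

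Notch2 therefore fell in each of the 3 genotype comparisons, by 0.72 on the log2 scale in Ly6Clo cells (SE 0.11, adjusted p = 0.00306), by 0.87 in Ly6Chi cells after IMQ (SE 0.09, adjusted p = 0.0194) and by 0.71 in Ly6Chi cells after Sham (SE 0.08, adjusted p = 0.0408). Within the first and second library series the log2 differences were -0.85 and -0.60 in Ly6Clo cells, -0.90 and -0.84 in Ly6Chi cells after IMQ, and -0.67 and -0.75 after Sham. The calls in Ly6Chi cells rested on all libraries. With each library left out in turn the adjusted p after Sham lay between 0.0622 and 0.283, and after IMQ it lay between 0.031 and 0.12, with the call kept only without wt replicate 4 (0.0324) or N2ΔMy replicate 1 (0.031). Without the variance trend neither was called (adjusted p = 0.389 after Sham and 0.0842 after IMQ), and after Sham the call also ended with quantile normalization (0.0519), no filter (0.17) or values under 1.1 set to 1.1 (0.0535). The size of the difference changed little with each library left out, from -0.76 to -0.67 after Sham and from -0.91 to -0.83 after IMQ. Reads from exons outside the floxed part still count towards the gene, and the gene-level values do not show which exons the remaining reads came from. RP23-3C4.2, a gene on the same strand that shares 541 bases of exon with Notch2, was at 105 to 434.

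The loss of Notch2 signal did not differ detectably between subsets or treatments. The genotype difference in Ly6Clo cells minus that in Ly6Chi cells was 0.14 (SE 0.13, adjusted p = 0.999), and the difference after IMQ minus that after Sham was -0.16 (SE 0.11, adjusted p = 1). Between subsets after IMQ, Notch2 was higher in Ly6Clo than in Ly6Chi cells by 0.35 in wt (SE 0.10, adjusted p = 0.0224) and by 0.50 in N2ΔMy cells (SE 0.10, adjusted p = 0.00408), without overlap but below the minimum fold. IMQ moved Notch2 in Ly6Chi cells by -0.13 in wt (SE 0.09, adjusted p = 0.392) and by -0.29 in N2ΔMy cells (SE 0.08, adjusted p = 0.0477), also below it.

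Notch1 (chr2:26457903-26516663, minus strand) is the other receptor with substantial signal, and its pattern differed from that of Notch2. In Ly6Clo cells it was at 696, 495, 337 and 591 in wt and at 1505, 1398, 953 and 849 in N2ΔMy libraries. All N2ΔMy libraries were above all wt libraries, and the mean rose from 530 ± 152 to 1176 ± 324 (SD, n = 4 each). The log2 difference was 1.16 (SE 0.24, adjusted p = 0.0184), with 1.30 and 1.01 within the first and second library series. The call was lost without wt replicate 2 (adjusted p = 0.0507), N2ΔMy replicate 1 (0.0563) or N2ΔMy replicate 2 (0.0572), and also without the filter on low values (0.181) or the variance trend (0.0584).

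In Ly6Chi cells Notch1 did not pass the test between genotypes. It was at 2894, 2152, 2260 and 2043 in wt and at 3763, 3244, 2930 and 2379 in N2ΔMy libraries after IMQ, a log2 difference of 0.39 (SE 0.15, adjusted p = 0.747) with overlapping libraries. After Sham the means were 3281 ± 79.9 and 3232 ± 273 (SD, n = 4 each), a log2 difference of -0.03 (SE 0.07, adjusted p = 0.989). The genotype difference in Ly6Clo cells exceeded that in Ly6Chi cells after IMQ by 0.77 (SE 0.31, adjusted p = 0.456), which did not pass the test. With the replicate number in the model the adjusted p of that excess was 0.0471, past the threshold.

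Notch1 was the member with the largest fall between subsets after IMQ. From Ly6Chi to Ly6Clo cells it fell by 2.18 on the log2 scale in wt (SE 0.20, adjusted p = 1.51e-05) and by 1.41 in N2ΔMy cells (SE 0.20, adjusted p = 0.000407). In wt Ly6Clo cells its mean was 22.7% of that in wt Ly6Chi cells, and in N2ΔMy cells 38.2%. The 2 opposite-strand genes that share exon bases with Notch1 were at 18 or less in every library. Ly6Chi markers also differed between wt and N2ΔMy Ly6Clo libraries, with summed levels of 1922 to 4247 and 9445 to 13985 over 7 markers, and none of the markers was at 0 throughout. Their part in the Notch1 result was not tested.

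The makeup of receptor transcripts per kb moved with subset and genotype. Notch1 made up 14.1% ± 0.708 of the receptor level in wt Ly6Chi cells after Sham, 11.2% ± 1.04 after IMQ and 2.18% ± 0.434 in wt Ly6Clo cells (SD, n = 4 each). In N2ΔMy cells the shares were 20.8% ± 1.44, 23.3% ± 2.7 and 7.72% ± 2.39, and all N2ΔMy libraries lay above all wt libraries of the same cells. Since Notch2 is part of the sum, its fall alone raises the share of Notch1. The summed receptor level per kb was 1686 ± 177 in wt and 1081 ± 74.4 in N2ΔMy Ly6Clo cells, so the higher Notch1 level stood beside a lower sum. Notch4 held at most 0.434% of the sum in any library, and Notch3 was listed at 2 or less.

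**Figure D2:**
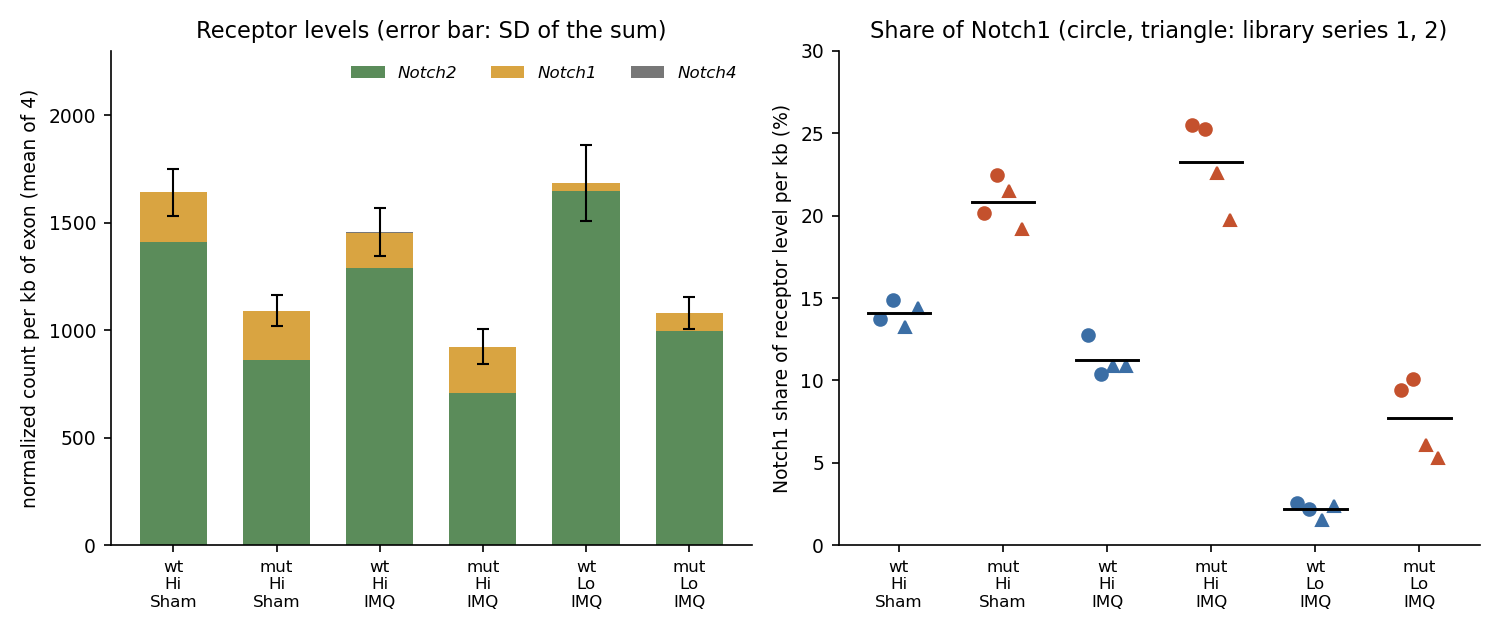
Left, mean receptor level in normalized counts per kb of exon (y axis, bars from 0, stacked by receptor, error bar the SD of the sum over 4 libraries) in the 6 groups. Right, the Notch1 share of that level in percent per library (circles and triangles for the library series, bar the mean). The share is lowest in wt Ly6Clo cells at a mean of 2.18% and highest in N2ΔMy Ly6Chi cells after IMQ at 23.3%.

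With all libraries of the compared groups in the fit, neither surface protease was called in any comparison. Adam10 (chr9:70678997-70780229, plus strand), the main protease for ligand-activated receptors, was at 2753, 3064, 2424 and 2862 in wt and at 3151, 3453, 3124 and 3491 in N2ΔMy Ly6Chi cells after IMQ. The groups did not overlap, and the log2 difference of 0.25 (SE 0.09, adjusted p = 0.67) did not pass. In Ly6Clo cells Adam10 was at 2791, 2738, 2383 and 2612 in wt and at 4214, 4258, 2704 and 2965 in N2ΔMy libraries, with both N2ΔMy libraries of the first series standing highest and replicate 3 within the wt range. The log2 difference there was 0.40 (SE 0.15, adjusted p = 0.173), and the series gave 0.62 (first) and 0.18 (second). Fitted alone, the first series gave a call of Adam10.

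Adam17 (chr12:21323509-21373632, minus strand), a sheddase of many surface proteins, was at 2732, 2822, 2407 and 2950 in wt and at 3188, 3175, 3123 and 3305 in N2ΔMy Ly6Chi cells after IMQ, again without overlap and with a log2 difference of 0.23 (SE 0.08, adjusted p = 0.662). In Ly6Clo cells its log2 difference was 0.31 (SE 0.20, adjusted p = 0.438), and the first library series lay above the second in both genotypes. With the replicate number in the model the adjusted p in Ly6Clo cells was 0.012 for Adam10 and 0.0099 for Adam17, both still under the minimum fold. IMQ was followed by higher Adam10 in N2ΔMy Ly6Chi cells by 0.34 (SE 0.07, adjusted p = 0.0135) and in wt by 0.24 (SE 0.09, adjusted p = 0.0916), both under the minimum fold. Iah1, on the opposite strand, shares 311 bases of exon with Adam17 and was at 88 to 333, and the strand setting of the counting is not given in the sources used here.

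Rbpj (chr5:53466152-53657362, plus strand), the DNA-binding factor of the pathway, had its highest means in Ly6Chi cells after Sham, at 540 to 924 in wt and 668 to 1045 in N2ΔMy libraries, and its lowest in wt Ly6Clo cells, at 293 to 377. In Ly6Clo cells it was at 293, 377, 372 and 352 in wt and at 348, 330, 730 and 588 in N2ΔMy libraries. The higher N2ΔMy values came from the second library series alone, in which the log2 difference was 0.85 against 0.03 in the first, and the pooled difference was 0.44 (SE 0.24, adjusted p = 0.36). IMQ was followed by lower Rbpj in Ly6Chi cells, by -0.53 in wt (SE 0.18, adjusted p = 0.0716) and by -0.60 in N2ΔMy cells (SE 0.17, adjusted p = 0.0459), the latter just under the minimum fold. Without single libraries this difference was called in wt (without wt Sham replicate 2, -0.66) and in N2ΔMy cells (without N2ΔMy Sham replicate 1, -0.73, or N2ΔMy IMQ replicate 3, -0.69).

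Maml1 (chr11:50255634-50292311, minus strand) was even across the groups, with means between 1004 and 1236 and log2 differences between -0.25 and 0.11 in the 7 comparisons of 2 groups. Maml2 (chr9:13297957-13709388, plus strand), a paralogous coactivator, was not. In Ly6Clo cells Maml2 was at 402, 285, 365 and 499 in wt and at 201, 156, 175 and 235 in N2ΔMy libraries. All wt libraries were higher than all N2ΔMy libraries, and Maml2 fell by 1.00 on the log2 scale (SE 0.20, adjusted p = 0.0128), with -0.93 and -1.07 within the library series. Without the filter on low values the difference was not called (adjusted p = 0.0988).

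In Ly6Chi cells Maml2 was not called between genotypes, with 109 to 138 in wt and 105 to 153 in N2ΔMy libraries after IMQ (log2 difference -0.03, SE 0.17, adjusted p = 0.994) and 170 to 278 and 203 to 238 after Sham (log2 difference -0.06, SE 0.17, adjusted p = 0.984). The genotype difference in Ly6Clo cells minus that in Ly6Chi cells was -0.97 (SE 0.26, adjusted p = 0.101), which did not pass. It passed with the replicate number in the model (adjusted p = 0.0217) and without wt Ly6Clo replicate 2 (adjusted p = 0.0454). From Ly6Chi to Ly6Clo cells Maml2 rose by 1.64 in wt (SE 0.18, adjusted p = 4.91e-05) and by 0.67 in N2ΔMy cells (SE 0.19, adjusted p = 0.0273). The call in N2ΔMy cells was kept without 3 of the 8 libraries and lost without each of the other 5 (adjusted p up to 0.0854) and without the filter on low values (0.0736). IMQ was followed by a fall of Maml2 in Ly6Chi cells, by 0.89 in wt (SE 0.18, adjusted p = 0.00705) and by 0.86 in N2ΔMy cells (SE 0.16, adjusted p = 0.00661).

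The promoter windows of the members were searched for the core of the sequence RBPJ binds, TGGGAA, on both strands (TTCCCA on the other), in the 250 bases before each start in a RefSeq table (GRCm38.p6). The table held 10 windows for 8 of the 9 members, with no entry for Hes1, and 3 of the 10 windows held a match, beside 21.6% of all 32851 windows. The matches were in 2 windows of Rbpj, which overlap and share a match, and in 1 of 2 windows of Maml2. Both genes are shown here because their windows hold the letters, with the matches in capitals, from chr5:53590096-53590345 and chr9:13662210-13662459, both on the plus strand. A match describes letters and is not a binding site, and the start at which the RNA of these libraries begins was not measured.
Rbpj: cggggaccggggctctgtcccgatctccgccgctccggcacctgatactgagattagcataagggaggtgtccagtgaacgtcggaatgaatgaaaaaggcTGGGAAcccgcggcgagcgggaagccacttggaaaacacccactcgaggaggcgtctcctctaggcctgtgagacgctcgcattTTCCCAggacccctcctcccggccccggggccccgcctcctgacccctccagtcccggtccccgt
Maml2: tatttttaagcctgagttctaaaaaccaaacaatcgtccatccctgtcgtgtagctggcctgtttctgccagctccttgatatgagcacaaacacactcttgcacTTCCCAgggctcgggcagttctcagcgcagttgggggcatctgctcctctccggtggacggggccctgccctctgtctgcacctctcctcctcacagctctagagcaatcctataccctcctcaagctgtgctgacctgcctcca
The Rbpj matches begin 149 and 65 bases before the start and the Maml2 match 145 bases before it. The windows of Notch1, Notch2, Notch4, Maml1, Adam10 and Adam17 and the other window of Maml2 held no match.

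Hes1 (chr16:30064384-30067796, plus strand) is the target gene among the members. In Ly6Clo cells it was at 592, 672, 744 and 788 in wt and at 252, 368, 296 and 324 in N2ΔMy libraries. All wt libraries were higher, the N2ΔMy mean was 44.3% of wt, and Hes1 fell by 1.18 on the log2 scale (SE 0.15, adjusted p = 0.00113). The difference was -1.05 and -1.30 within the first and second library series, and the call was kept under every alternative tried and when each library in turn was left out.

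In Ly6Chi cells Hes1 was low, at 132, 187, 172 and 189 in wt and at 44, 44, 110 and 82 in N2ΔMy libraries after IMQ. The groups did not overlap and the N2ΔMy mean was 41.2% of wt, but the log2 difference of -1.37 (SE 0.31) did not pass over all genes (adjusted p = 0.435), with -1.81 and -0.92 in the library series. It did with the replicate number in the model (adjusted p = 0.0191). After Sham Hes1 was at 56, 67, 159 and 158 in wt and at 39, 36, 64 and 53 in N2ΔMy libraries, so that each series had higher wt values while the pooled groups overlapped (log2 difference -1.06, SE 0.39, adjusted p = 0.921, with -0.69 and -1.43 in the library series). The genotype difference in Ly6Clo cells minus that in Ly6Chi cells after IMQ was 0.19 (SE 0.35, adjusted p = 0.999).

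Hes1 had the largest rise of the members between subsets, by 2.04 in wt (SE 0.15, adjusted p = 3.2e-06) and by 2.23 in N2ΔMy cells (SE 0.29, adjusted p = 0.000266). Its level in N2ΔMy Ly6Clo cells (252 to 368) was thus below that of wt Ly6Clo cells and above that of wt Ly6Chi cells after IMQ (132 to 189), with no overlap on either side. IMQ against Sham gave a log2 difference in Ly6Chi cells of 0.76 in wt (SE 0.34, adjusted p = 0.165), which was called with the replicate number in the model (adjusted p = 0.0381), and of 0.46 in N2ΔMy cells (SE 0.35, adjusted p = 0.447). In wt the difference was 1.34 in the first library series and 0.18 in the second.

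**Figure D3:**
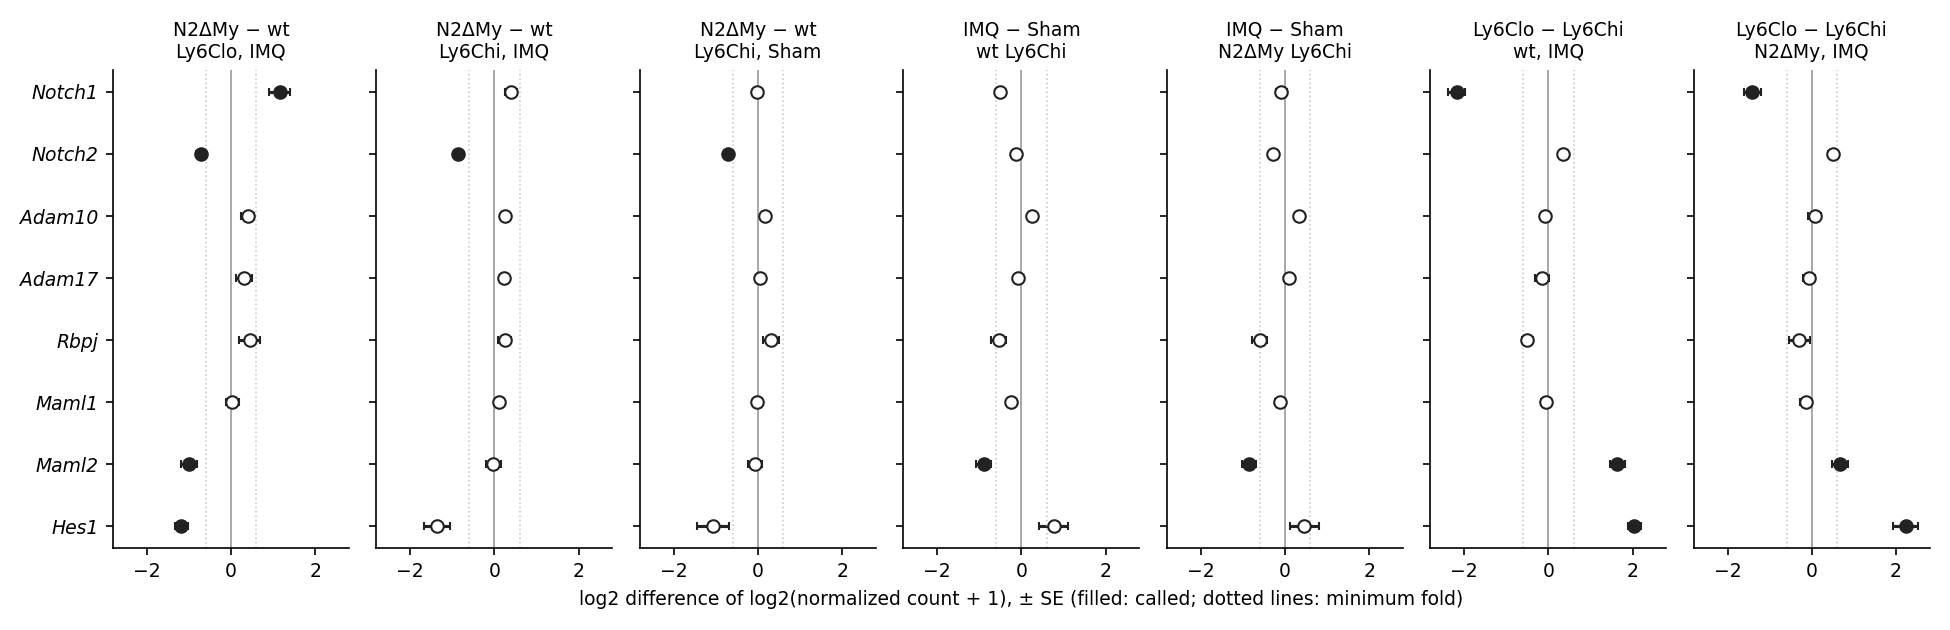
Log2 difference ± SE (x axis, normalized count + 1) of the 8 tested members (y axis) in 7 comparisons of 2 groups of 4 libraries. Filled points are called, open points are not, and dotted lines mark the minimum fold of 0.6. Notch2 is called lower in all 3 genotype comparisons, and in Ly6Clo cells Hes1 and Maml2 are also called lower and Notch1 higher.

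Between genotypes in Ly6Clo cells, 4 of the 8 tested members were called, Notch1 higher and Notch2, Hes1 and Maml2 lower, beside 4.78% of all genes tested (3.12% higher and 1.67% lower). These 4 members were also those without overlap, beside 12.8% of all genes. The median log2 difference of the 8 members was 0.17, against -0.0035 over all genes. In Ly6Chi cells 1 of 8 members, Notch2, was called after IMQ (0.0267% of all genes) and after Sham (0.0178%). After IMQ, 4 of the 8 did not overlap (Notch2, Hes1, Adam10 and Adam17), beside 3.84% of all genes, and after Sham 1 of 8, beside 3.15%. Notch2 is the gene targeted in the mutant, so its call was built into the design. The members were also chosen with earlier results of these data known. These counts are therefore no test of the members as a group. Ly6Clo markers summed to 126240 to 151459 in wt and 69582 to 87600 in N2ΔMy Ly6Clo libraries, and macrophage markers to 4835 to 6868 and 9727 to 14531. Of the Ly6Clo markers Cx3cr1 went the other way, higher in N2ΔMy cells by 0.52 (adjusted p = 0.0173 in limma), under the minimum fold. Itgax, Treml4 and Pou2f2 were lower without being called. The 5 conventional dendritic cell markers summed to 83 to 522 (median 130) in wt and 206 to 1626 (median 471.5) in N2ΔMy Ly6Clo libraries, which overlap, with Xcr1 at 0 to 13. In Ly6Chi cells after IMQ, macrophage markers summed to 3259 to 4337 in wt and 4492 to 6360 in N2ΔMy libraries, without overlap. The sums of Ly6Chi and Ly6Clo markers overlapped there. After Sham, Ly6Clo markers summed to 22505 to 27131 in wt and 17378 to 22012 in N2ΔMy libraries, without overlap, while those of Ly6Chi and macrophage markers overlapped. No tested marker of these lists was called between genotypes in Ly6Chi cells. The part of these differences in the results of the members was not tested in either subset.

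Of 72 listed pathway genes that are no members, 53 were tested, and in Ly6Clo cells 2 of the 53 were called between genotypes, a share near the 4.78% of all genes and so no result about these genes as a group. Nrarp, a Notch target that limits Notch signalling by feedback, was at 151, 132, 128 and 151 in wt and at 37, 28, 52 and 80 in N2ΔMy Ly6Clo libraries and fell by 1.60 (SE 0.31, adjusted p = 0.0118). Myc, a growth regulator and Notch target in some cells, was at 7, 6, 19 and 9 in wt and at 30, 47, 137 and 91 in N2ΔMy libraries and rose by 2.68 (SE 0.53, adjusted p = 0.0133), at low counts. Both calls ended without the filter on low values (adjusted p = 0.091 for Nrarp and 0.116 for Myc), and that of Nrarp also with all 24 libraries in the fit (0.122). In the model with the replicate number Tspan33 and Ccnd1 were also called higher (adjusted p = 0.0145 and 0.0126). In Ly6Chi cells 0 of the 53 were called in either treatment. The genotype difference in Ly6Clo cells exceeded that in Ly6Chi cells for Myc (3.11, SE 0.72, adjusted p = 0.0464), 1 of 53 other pathway genes called beside 1.03% of all genes, and for 0 of 8 members. The Myc call was lost without each of 12 of the 16 libraries (adjusted p up to 0.0994), and with quantile normalization (0.0668), no filter (0.162), a pseudocount of 10 (0.0561) or no variance trend (0.0564). Between treatments the genotype difference was called for 0 of 11230 genes, of which 177 had an unadjusted p under 0.05.

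Between subsets after IMQ, 3 of 8 members were called in wt (Hes1 and Maml2 higher, Notch1 lower in Ly6Clo cells), beside 24.6% of all genes (11.9% higher and 12.7% lower), and 5 did not overlap, beside 35.4%. In N2ΔMy cells the same members were called in the same directions, beside 17.4% (9.01% higher and 8.38% lower), and 4 did not overlap, beside 27.8%. With backgrounds of this size, counts of 3 in 8 are no result about the members as a group. Of the other 53 pathway genes, 8 rose and 5 fell in wt Ly6Clo against Ly6Chi cells, and 7 rose and 2 fell in N2ΔMy cells. Nrarp rose by 4.58 in wt (SE 0.31, adjusted p = 1.93e-06), from 4 to 7 in Ly6Chi libraries to 128 to 151 in Ly6Clo libraries, and by 3.67 in N2ΔMy cells (SE 0.68, adjusted p = 0.00252). Without N2ΔMy Ly6Chi IMQ replicate 1, in which Nrarp was at 0, the latter was 3.05.

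Pofut1, Lfng and Tle1 are named after their values were seen, and with 24.6% and 17.4% of all genes called nothing is read from them about the groups of genes they belong to. Pofut1, which adds the O-fucose that receptors need, rose by 0.87 in wt and 0.73 in N2ΔMy cells (SE 0.12 each), and Lfng, which extends that sugar, by 0.67 (SE 0.13) and 0.68 (SE 0.14). The corepressor Tle3 fell in both (-0.92 and -1.01, SE 0.09 each), while its relative Tle1 rose by 0.86 (SE 0.24) and 0.79 (SE 0.13). Jag1, the 1 ligand of 8 that reached 50, rose from 6 to 21 in wt Ly6Chi libraries to 29 to 116 in wt Ly6Clo libraries (log2 difference 2.35, SE 0.53, adjusted p = 0.00554), and by 2.82 in N2ΔMy cells (SE 0.42, adjusted p = 0.000593). Ccnd1, a cell cycle gene, rose by 2.41 in wt (SE 0.61, adjusted p = 0.01) and by 4.02 in N2ΔMy cells (SE 0.89, adjusted p = 0.00699). Its values were 21, 30, 94 and 29 in wt and 28, 65, 375 and 132 in N2ΔMy Ly6Clo libraries, and the difference in N2ΔMy cells was 3.38 without N2ΔMy Ly6Clo replicate 3, 4.61 without N2ΔMy Ly6Clo replicate 1 and 4.66 without N2ΔMy Ly6Chi IMQ replicate 3. Myc fell in wt (-1.82, SE 0.44, adjusted p = 0.00825), as did Dtx3 (-1.06, SE 0.20) and Numbl (-1.04, SE 0.21), and Dtx3 also in N2ΔMy cells (-1.21, SE 0.18). In N2ΔMy cells Nedd4, a ubiquitin ligase, rose by 3.63 (SE 0.95, adjusted p = 0.0171), a call that was lost without N2ΔMy Ly6Clo replicate 3 (adjusted p = 0.0544) or 4 (0.0586), and the difference was 4.36 without N2ΔMy Ly6Chi IMQ replicate 3. Without the filter on low values Ccnd1 (adjusted p = 0.0586) and Tle1 (0.107) were not called in wt, nor were Ccnd1 (0.0864), Lfng (0.0506) and Nedd4 (0.101) in N2ΔMy cells, and with quantile normalization Lfng was under the minimum fold in wt (0.53). Adding the replicate number, Tspan33 was also called lower in wt (-2.49, adjusted p = 0.00652), and in N2ΔMy cells Myc higher (1.29, adjusted p = 0.00675) and Dtx4 (-0.64, adjusted p = 0.0312) and Numbl (-0.90, adjusted p = 0.0456) lower.

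**Figure D4:**
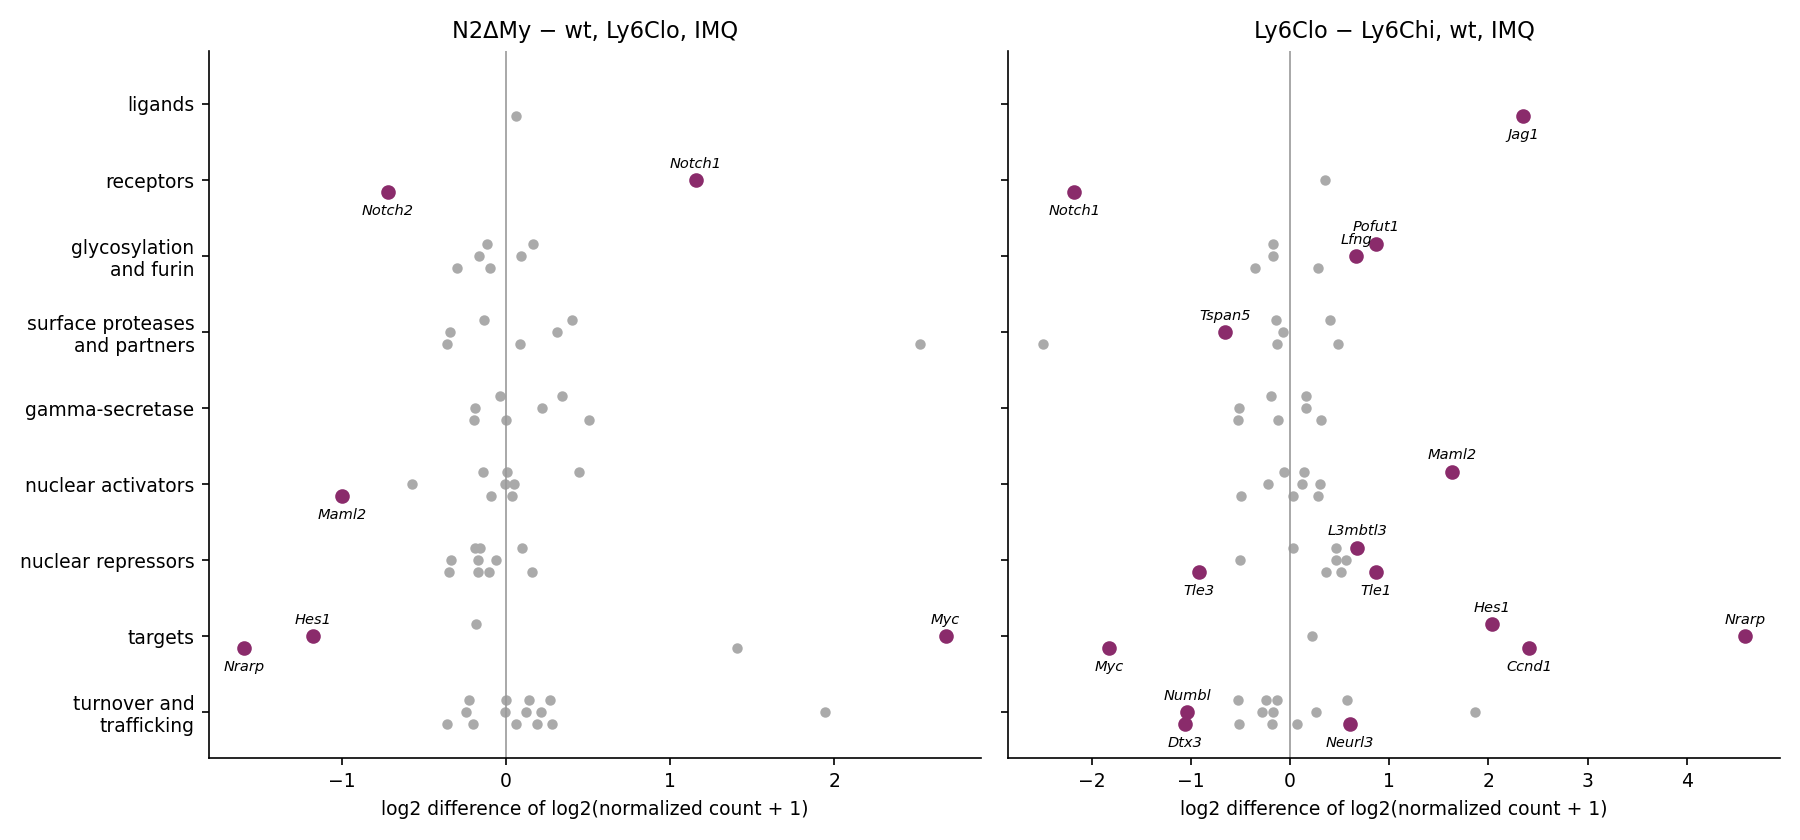
Log2 difference (x axis, normalized count + 1) of the 61 tested Notch pathway genes, members included, by role (y axis), between genotypes in Ly6Clo cells (left) and between subsets in wt after IMQ (right). Each point is 1 gene, purple points with names are called, and the vertical offset within a role only separates points. Between genotypes the called genes are Notch1, Notch2, Maml2, Hes1, Nrarp and Myc.

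IMQ against Sham in Ly6Chi cells gave 1 called member in each genotype, Maml2, beside 9.49% of all genes in wt and 8.7% in N2ΔMy cells. In wt 3 of 8 members did not overlap (Notch1, Maml1 and Maml2), beside 21.5% of all genes, and in N2ΔMy cells 3 of 8 (Notch2, Maml2 and Adam10), beside 19.5%. Notch1 in wt was lower by 0.50 (SE 0.11, adjusted p = 0.00904), under the minimum fold, and by 0.61 without wt IMQ replicate 1, where it was called. Of the other 53 pathway genes 1 rose and 3 fell in wt, and 1 rose and 5 fell in N2ΔMy cells. The gene that rose in each was Psen2, a catalytic subunit of gamma-secretase, by 0.66 in wt (SE 0.12, adjusted p = 0.00433, and 0.57 without wt Sham replicate 3, under the minimum fold) and by 0.74 in N2ΔMy cells (SE 0.10, adjusted p = 0.00107). Jag1 fell in wt (log2 difference -2.09, SE 0.46) and in N2ΔMy cells (-2.61, SE 0.42), and so did Tspan33, a tetraspanin partner of ADAM10 (-1.83, SE 0.36, and -2.56, SE 0.47). Nedd4, at 24 to 38 in wt Sham libraries and 0 to 9 in wt IMQ libraries, fell in wt (-3.90, SE 0.74) and in N2ΔMy cells (-3.63, SE 0.78). The differences were -4.65 without wt IMQ replicate 3 and -4.37 without N2ΔMy IMQ replicate 3. Tspan17 (-0.99, SE 0.21) and Tle1 (-0.74, SE 0.17) fell in N2ΔMy cells. The Tle1 call was lost without N2ΔMy Sham replicate 1 (-0.59) or N2ΔMy IMQ replicate 4 (adjusted p = 0.0513). In the model with the replicate number Tle1 (-0.68, adjusted p = 0.0111) and Nrarp (-1.66, adjusted p = 0.0437) were also called lower in wt, and Ccnd1 (-2.21, adjusted p = 0.0422) in N2ΔMy cells. Without the filter on low values Tspan33 (adjusted p = 0.0511), Jag1 (0.0757) and Nedd4 (0.0521) were not called in wt, and Nedd4 (0.0939) and Tle1 (0.0829) were not called in N2ΔMy cells. With all 24 libraries in the fit Tspan33 was not called in wt (adjusted p = 0.0843). A list of 8 neutrophil markers summed to 921 to 5213 in the Ly6Chi libraries after IMQ and to 2 to 59 after Sham, and nearly all of that sum was S100a8 (402 to 3443 after IMQ) and S100a9 (499 to 1739). The defining markers were at or near 0 in the Ly6Chi libraries after IMQ, with Ly6g at 0 in all of them and Camp, Ltf, Ngp and Retnlg at 0 to 8, and Ly6G was among the markers by which cells were excluded in the sort. Conventional dendritic cell markers summed to 823 to 1474 after Sham and 270 to 529 after IMQ in wt, and to 958 to 1686 and 296 to 410 in N2ΔMy Ly6Chi libraries, without overlap in either genotype. Of them Cd209a was called lower in wt (-6.31, and -7.35 without wt IMQ replicate 3) and in N2ΔMy cells (-7.33, and -7.94 without N2ΔMy IMQ replicate 3). Flt3 (-0.84 in wt and -0.88 in N2ΔMy cells) and Clec9a (-2.53 and -3.54) were also called lower, and Zbtb46 was not called in either genotype. The wt difference of Clec9a was -3.14 without wt IMQ replicate 3 and -1.75 without wt IMQ replicate 4. Without the filter on low values neither Flt3 (adjusted p = 0.104 and 0.0665) nor Clec9a (0.228 and 0.063) was called. Macrophage markers summed to 6192 to 7672 after Sham and 3259 to 4337 after IMQ in wt, and to 5742 to 8418 and 4492 to 6360, which overlap, in N2ΔMy cells. Single markers moved both ways. Siglec1 (-3.56 in wt and -3.62 in N2ΔMy cells) and Fcgr1 (-1.15 and -1.01) were called lower. Adgre1 (0.66) and Mertk (1.20) were called higher in N2ΔMy cells but not in wt (0.40 and 0.38). C1qa, C1qb, C1qc and Cd5l were not called in either. In N2ΔMy cells the call of Mertk ended with all 24 libraries in the fit (adjusted p = 0.0632) and that of Fcgr1 without the filter (0.0985). The part of these marker lists in the results for IMQ was not tested.

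The genotype, subset and treatment comparisons share groups, since wt Ly6Chi cells after IMQ enter a comparison of each kind, so their differences are not independent of each other. As a description, the genes whose log2 values over the 24 libraries were most like those of Notch2 were Tet2 (Pearson r = 0.902), Mirt1 (0.849), AC074336.1 (0.841), Lrch1 (0.831) and Chd6 (0.819). Tet2, a DNA demethylation enzyme on the same chromosome, had means of 6274 in wt and 4169 in N2ΔMy Ly6Clo cells, 4636 and 3411 in Ly6Chi cells after IMQ, and 4867 and 3591 after Sham. Most like Hes1 were Dusp5 (0.948), Lrrc8c (0.946), Tiam2 (0.943), Phlpp1 (0.943) and Nr4a1 (0.942), the last of these a transcription factor that Ly6Clo monocytes need. The 24 libraries fall into 6 groups and 2 library series, so these values mostly express shared group differences.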

How the data were processed

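RNA from sorted monocytes was sequenced by the authors as single reads from stranded total-RNA libraries amplified with 11 PCR cycles. Per the study's methods, reads were processed with nf-core/rnaseq on GRCm38.p6 with GENCODE M17, and the submitters' processing notes name Trim Galore 0.4.4, STAR 2.5.3a and DESeq2, used by the authors. The deposited score per gene and library is a count that the authors normalized with DESeq2 and rounded to a whole number. The planned test for raw counts was not used, since median-of-ratios factors of the table were 1.01 in every library.

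Values were compared as log2(value + 1) with limma 3.58.1 (lmFit, eBayes with trend) in R 4.3.3 on the libraries of the groups compared (16 for an interaction, 24 for the F-test), with Benjamini-Hochberg adjustment over the 11230 genes at 50 or more in at least 1 library. Single members were also compared by two-sided exact permutation tests over 70 splits. On simulated data with 100 genes changed 2-fold and 100 changed 4-fold, the comparison of genotypes in Ly6Clo cells recovered 78 and 100, the subset interaction 24 and 98, and the F-test 74 and 100. The simulated counts had the same dispersion for all genes, no library series effect, and changes in the N2ΔMy Ly6Clo libraries alone. Recovery in the real libraries can differ and was not measured. Depth was estimated from the pattern of whole numbers that scaling and rounding leave unused, with an error of at most 0.0833% on 8 simulated libraries. On the real libraries the correlation of this fit was 0.324 to 0.869, and its error there was not measured. Binomial intervals need raw counts and were not computed, so precision is the SD or SE over libraries.

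Same-numbered replicates deviated from their group means together (correlation of at least 0.16 in every pair, means of 0.349 to 0.519), and this fell to between -0.01 and 0.24 on average once library series means were removed. The main tests were unpaired, with neither the replicate number nor the library series in the model. The fit with the replicate number is an alternative and is given where it changes a call.

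Named genes are the members and, in each comparison, up to 6 other called genes of a list of 81 pathway genes with the largest absolute difference. For Notch2 and Hes1 the 5 genes with the highest correlation are named. The members and lists were chosen with earlier results of these data known. Alternatives covered scaling, the filter on low values, the pseudocount, the variance trend, the replicate block, the library series, the samples in the fit, the minimum fold and leaving out each library. Per kb levels use the exon length in the deposited table. Promoter sequences are from RefSeq. Python 3.11.15, pandas 2.3.3, numpy 2.4.6 and matplotlib 3.10.9 were used for tables and figures.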

Additional observations from a re-analysis of the deposited data

Results flagged for a closer look

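The genotype difference of Myc differed between subsets. After IMQ the N2ΔMy minus wt log2 difference of Ly6Clo cells exceeded that of Ly6Chi cells by 3.11 (SE 0.72, adjusted p = 0.0464 in limma's interaction test over 11230 genes). Myc was at 6 to 19 in wt and 30 to 137 in N2ΔMy Ly6Clo libraries, and at 26 to 47 and 11 to 45 in Ly6Chi libraries. The values are low, and the call was kept without 4 of the 16 libraries and lost without each of the other 12 (adjusted p up to 0.0994). Of the 54 combinations of a member and a group, 0 had a library far enough from the other 3 to exceed Dixon's 95% critical value, a limit that chance exceeds in about 1 of 20.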

How the results depend on the processing

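Counts of called members changed as follows. Between genotypes in Ly6Clo cells, 4 members became 2 without a filter on low values (Notch2 and Hes1 kept, Notch1 and Maml2 lost) and 1 in the second library series alone (Hes1). In Ly6Chi cells after IMQ, 1 became 2 with the replicate block or library series as a covariate, and 0 without the variance trend or in either series alone (0 to 1 with each library left out). After Sham, 1 became 0 with quantile normalization, without the filter, with values under 1.1 set to 1.1, without the trend, in either series and with each library left out (0 to 0). For IMQ in wt, 1 (Maml2) became 2 with the block, the covariate (Hes1 added in both) or no minimum fold (Notch1 added), and 2 others in the second series (Notch1 and Rbpj, without Maml2, adjusted p = 0.0607), while the 1 in the first series was Hes1 and not Maml2 (0.0767); with each library left out it was 1 to 2. For IMQ in N2ΔMy cells, 1 became 2 with upper-quartile scaling or in the first series, 0 in the second series and 4 with no minimum fold (1 to 2). Between subsets in wt, 3 became 5 with no minimum fold. Between subsets in N2ΔMy cells Maml2 was lost without the filter (adjusted p = 0.0736) and in the first series alone (0.0847), and 2 to 3 members were called with each library left out. Unchanged counts also hid a change of member in the first series between genotypes in Ly6Clo cells (Adam10 called in place of Maml2) and in the second series between subsets in N2ΔMy cells (Notch2 in place of Maml2). For the subset interaction, 0 became 2 with the block and 1 with the covariate or all 24 libraries in the fit (0 to 1).

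Counts of other pathway genes moved between genotypes in Ly6Clo cells from 2 to 0 without the filter, 4 with the block and 1 in the second series. For IMQ in wt, 4 became 2 without the filter, 1 in the second series and 11 with no minimum fold. Between subsets 13 in wt became 4 in the second series and 25 with no minimum fold, and 9 in N2ΔMy cells became 19 with no minimum fold. For the subset interaction 1 became 0 with quantile normalization, no filter, a pseudocount of 10, no trend or either series (0 to 1 with each library left out).

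Over all genes, 537 calls between genotypes in Ly6Clo cells became 215 without the filter, 939 with the block, 830 with the covariate and 180 in the second series. In Ly6Chi cells after IMQ, 3 became 8 without the filter, 0 without the trend, 54 with the block, 29 with the covariate, 1 in the second series and 15 with all 24 libraries (0 to 4 with each library left out). After Sham, 2 became 7 without the filter and 1 with quantile normalization, values under 1.1 set to 1.1, no trend or either series (1 to 2). For IMQ, 1066 in wt became 592 in the second series and 1751 with no minimum fold, and 977 in N2ΔMy cells became 1544 with no minimum fold. The 116 interaction calls became 271 with the block, 210 with the covariate and 18 in the second series (75 to 173), and 0 for the treatment interaction became 1 without the filter.

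Differences that changed sign were among those not called. Between genotypes these were Maml1 in Ly6Clo cells (-0.012 with upper-quartile scaling, -0.070 in the second series, -0.052 to 0.15 with each library left out), Maml2 in Ly6Chi cells after IMQ (0.0069 with quantile normalization, 0.0046 in the second series, -0.15 to 0.031), and after Sham, in the first series, Notch1 (0.027, -0.053 to 0.037), Maml1 (0.12, -0.075 to 0.054) and Maml2 (0.14, -0.20 to 0.034). For IMQ in N2ΔMy cells it was Notch1 (0.063 in the first series, -0.19 to 0.032). Between subsets in wt they were Maml1 (0.035 with upper-quartile scaling, 0.0085 in the first series, -0.10 to 0.028), Adam10 (0.019 with upper-quartile scaling) and Adam17 (0.14 in the first series, -0.28 to 0.0072). In N2ΔMy cells they were Adam10 (-0.034 with quantile normalization, -0.22 in the second series, -0.030 to 0.19) and Adam17 (0.18 in the first series, -0.15 to 0.050). The subset interaction of Hes1 was -0.39 in the second series. The cause of these changes was not tested. Fits on 1 series hold 2 libraries a group. In the F-test over groups the replicate block raised the pathway genes that passed, members included, from 43 to 47 of 61, adding Maml1, Poglut1, Aph1a and Numb. In the comparisons and interactions it changed no call of a member or listed pathway gene other than those given with it. How depth bears on genes with values near the filter was not tested.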
